A study of Homo sapiens with 6 samples.

Results

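The genes described here are 10 chosen by symbol, each encoding an enzyme of serine, asparagine or proline synthesis, of transsulfuration, or of the mitochondrial folate steps attached to serine: PHGDH, PSAT1, PSPH, SHMT2, MTHFD2, ASNS, ALDH18A1, PYCR1, CBS and CTH. All 10 were found among the 59962 genes of the deposited table, and all 10 passed the filter on low values. RNA-seq was run on 6 libraries of CFPAC-1, an established line from a pancreatic ductal adenocarcinoma. There were 2 libraries from cells with a guide RNA against LACZ, a bacterial gene that serves as the control target, and 2 from cells with each of a pair of guides against SULF2, sgRNA1 and sgRNA3. The label of every library says knockdown, and all 3 groups carry a guide. SULF2 encodes a sulfatase that removes sulfate groups from heparan sulfate at the cell surface. The sources used here do not give whether the guides cut or repress, where they lie in SULF2, or whether each group is a clone or a pool of cells. No sample title names the columns of the guide libraries exactly (H1 and H3 in the table, S1 and S3 in the titles), so they were matched by guide and replicate number.

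Cells make serine from a glycolytic intermediate in a sequence that PHGDH begins, PSAT1 continues and PSPH completes. In mitochondria SHMT2 moves a carbon unit from serine to folate, and MTHFD2 oxidises that unit for use in nucleotide synthesis. ASNS makes asparagine from aspartate and glutamine, ALDH18A1 and PYCR1 make the first and last committed steps from glutamate to proline, and CBS and CTH pass the sulfur of homocysteine to cysteine. As background, many genes of these pathways are known targets of ATF4, a transcription factor whose translation rises during amino acid shortage and endoplasmic reticulum stress.

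Levels are in TPM, a transcript abundance scaled for gene length and to the same total in every library, so a level is a share of the library's transcripts and not an amount per cell, and fewer cells with a transcript cannot be told apart from less of it in each cell. The libraries held 15563 to 15923 genes at a TPM of at least 1. Across genes, log2(TPM + 1) correlated at 0.959 to 0.964 between libraries of a group and at 0.947 to 0.961 between groups. SULF2 itself stood at 25.69 and 22.52 TPM under LACZ, 8.98 and 12.81 under sgRNA1, and 10.07 and 9.24 under sgRNA3. It was lower by limma with both guides, at 45.2% of the LACZ mean (adjusted p = 0.0338) and 40.1% (adjusted p = 0.0215), but the sgRNA1 call was lost without any library except the second of sgRNA1 (adjusted p 0.0695 to 0.159) and the sgRNA3 call without either LACZ or either sgRNA3 library (0.0853 to 0.106). Both SULF2 calls were also lost under some other settings, given below. Of 10 ductal epithelial markers 9 were tested. KRT19 was at 2480.55 TPM or more in every library, CFTR was at 0.07 to 0.38 TPM, and the sum of the list was 8053.81 to 9266.88 TPM. KRT18, KRT19 and SOX9 were lower with both guides, CDH1 with sgRNA1, and none of the list was higher. Summed markers of other cell types were 0.67 to 1.87 TPM for acinar cells, 1.42 to 5.45 TPM for islet cells and 39.78 to 82.79 TPM for fibroblasts. Most of the fibroblast sum was COL1A1, at 35.08 to 74.81 TPM, which was lower with both guides. ACTA2 was at 2.06 to 18.61 TPM and LUM at 1.05 to 2.1 TPM, while COL3A1 was at most 0.02 and DCN at most 0.11 TPM. Leukocyte and endothelial markers summed to 101.84 to 119.13 TPM, of which CD68 gave 86.39 to 107.43 TPM and was higher with sgRNA3. CD14 was at 2.26 to 8.94 TPM, LYZ at 4.35 to 6.42 and PECAM1 at 3.51 to 4.38, while PTPRC was at most 0.10 TPM. The part of these shifts in the results below was not tested.

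The members were chosen with earlier results of these data known, so their contrast with all genes may in part follow from that choice. Most of the enzymes were lower with either guide. With sgRNA1 these were 8 of 10 members, where 4.31% of the 16610 tested genes were called lower, and with sgRNA3 they were the same 8 genes, where 5.25% were called lower. Lower calls with both guides held for those 8 members and for 2.9% of all genes. All 4 guide libraries lay below both LACZ libraries for 9 of the 10 members, as they did for 23.4% of all tested genes. No member was called higher with sgRNA1 (1 at an unadjusted limma p under 0.05, ALDH18A1), where 1.69% of all genes were, and 1 was called higher with sgRNA3, where 3.84% of all genes were. ASNS fell most, to 24.0% of the LACZ mean with sgRNA1. The median log2 change was -0.97 with sgRNA1 and -0.69 with sgRNA3, against -0.07 and -0.05 over all tested genes. These comparisons share the LACZ libraries, so agreement between the guides in direction rests in part on the same 2 controls. Each call is a two-sided limma test on log2(TPM + 1) with Benjamini-Hochberg adjustment over all tested genes and a threshold of 0.05, with n = 2 libraries a group; on this scale changes of genes at low TPM are understated. The labels do not say whether these were separate cultures, so the p-values rest on a spread between libraries that may be technical. Leaving out single libraries lowered the count to between 4 and 7 members with sgRNA1 and between 4 and 5 with sgRNA3, and the genes concerned are given below.

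**Figure D1:**
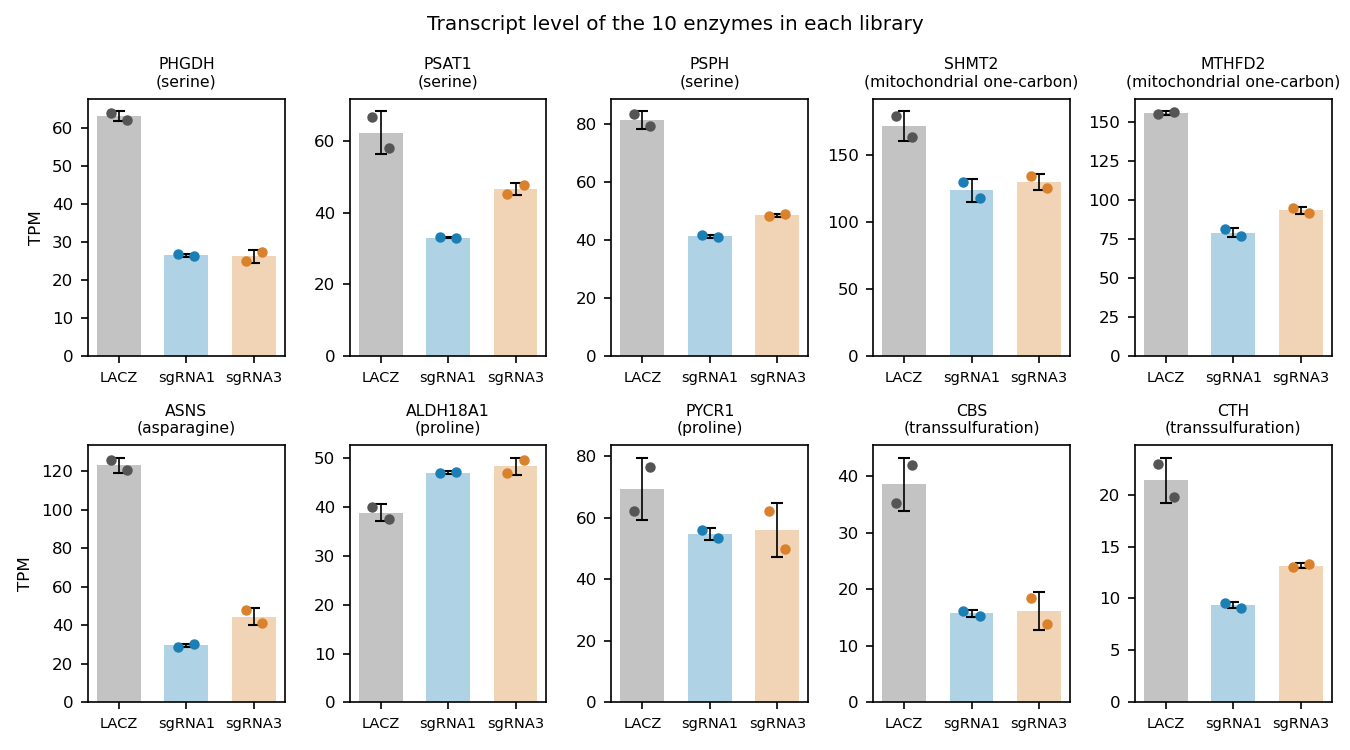
TPM of each of the 10 enzymes, with a separate vertical axis from 0 for each gene. Points are libraries (2 a group), bars are group means and error bars are the SD; 9 enzymes are lower in all 4 SULF2 guide libraries than in both LACZ libraries, and ALDH18A1 is higher in all 4.

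Of the serine enzymes, PHGDH (chromosome 1, 119648411 to 119744226, plus strand), which oxidises phosphoglycerate to open the pathway, stood at 63.95 and 62.11 TPM under LACZ, 26.66 and 26.16 under sgRNA1, and 24.96 and 27.31 under sgRNA3. The guide groups overlapped each other and lay far below the LACZ libraries. Against LACZ it fell to 41.9% with sgRNA1 (log2 -1.22, SE 0.071, limma adjusted p = 0.00205) and to 41.5% with sgRNA3 (limma adjusted p = 0.00218). PSAT1 (chromosome 9, 78297143 to 78330093, plus strand), the aminotransferase that follows, stood at 66.72 and 58.26 TPM, then 33.19 and 32.91 with sgRNA1, and 45.43 and 47.79 with sgRNA3. The 3 groups were separate, with the sgRNA3 libraries between the others. It fell to 52.9% with sgRNA1 (log2 -0.90, SE 0.082, limma adjusted p = 0.00817) and to 74.6% with sgRNA3 (log2 -0.41, adjusted p = 0.0438). The sgRNA1 call of PSAT1 was lost without either sgRNA1 library (adjusted p 0.0511 without the first and 0.0628 without the second), and its sgRNA3 call with each of the 6 libraries left out (0.0760 to 0.166).

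PSPH (chromosome 7, 56011051 to 56051604, minus strand), the phosphatase that releases serine, stood at 83.43 and 79.16 TPM under LACZ, 41.66 and 40.88 under sgRNA1, and 48.15 and 48.8 under sgRNA3. Here too no groups overlapped and sgRNA3 was in between. PSPH fell to 50.8% (log2 -0.96, SE 0.056, limma adjusted p = 0.00205) and to 59.6% (log2 -0.73, adjusted p = 0.00433). PSPHP1, a pseudogene of PSPH, was listed at 140.02 and 127.37 TPM, 88.14 and 114.98, and 69.68 and 76.66. The listed length of PSPHP1 is 261 bases, against 1974 for PSPH. PSPHP1 was called lower with sgRNA3 (limma adjusted p = 0.0262) and not with sgRNA1 (adjusted p = 0.150). The sources used here do not give how the authors' counting split reads between such copies, so the level of PSPH is uncertain. Summing both rows, an alternative chosen after seeing the data, gave log2 changes of -0.59 and -0.82, both still called. Since TPM is scaled for length, this sum does not pool the reads of both rows. Summed over the 3 serine enzymes, the level was 214.1 and 199.53 TPM under LACZ, 101.51 and 99.95 under sgRNA1 (48.7% of the LACZ mean), and 118.54 and 123.9 under sgRNA3 (58.6%).

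Some ratios among the serine enzymes separated the groups and another did not. PSAT1 over PHGDH, a ratio of TPM levels, was 1.04 and 0.938 under LACZ, 1.245 and 1.258 under sgRNA1, and 1.82 and 1.75 under sgRNA3. The groups did not overlap, and the ratio was highest with sgRNA3, where the libraries overlapped those of sgRNA1 in PHGDH and lay above them in PSAT1. PHGDH over PSPH did not overlap between groups either (0.767 and 0.785 under LACZ, 0.640 and 0.640 under sgRNA1, 0.518 and 0.560 under sgRNA3). PSAT1 over PSPH was 0.800 and 0.736 under LACZ and 0.797 and 0.805 under sgRNA1, which overlapped. With sgRNA3 it was 0.944 and 0.979. No test was run on these ratios.

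Both enzymes of the mitochondrial folate steps fell. SHMT2 (chromosome 12, 57229327 to 57234935, plus strand), the serine hydroxymethyltransferase of mitochondria, had the highest level of the members in every library, with 179.09 and 163.39 TPM under LACZ, 129.44 and 117.4 under sgRNA1, and 133.82 and 125.26 under sgRNA3. It fell to 72.1% (log2 -0.47, SE 0.076, limma adjusted p = 0.0321) and to 75.6% (log2 -0.40, adjusted p = 0.0390), the guide groups overlapped, and both calls were lost without any 1 of the 6 libraries (adjusted p 0.0630 to 0.143 with sgRNA1 and 0.0540 to 0.149 with sgRNA3). MTHFD2 (chromosome 2, 74198562 to 74217565, plus strand), the dehydrogenase and cyclohydrolase that acts next, stood at 155.05 and 156.79 TPM, 81.34 and 76.96 with sgRNA1, and 95.2 and 92.06 with sgRNA3. All 3 groups of MTHFD2 were separate, and it fell to 50.8% (log2 -0.97, SE 0.050, limma adjusted p = 0.00148) and 60.1% (log2 -0.73, adjusted p = 0.00333). The ratio of MTHFD2 to SHMT2 was 0.866 and 0.960 under LACZ, 0.628 and 0.656 under sgRNA1, and 0.711 and 0.735 under sgRNA3. The groups of this ratio did not overlap, and it was also untested.

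Asparagine synthetase, ASNS (chromosome 7, 97852118 to 97872542, minus strand), was the member with the largest change with either guide. It stood at 126 and 120.54 TPM under LACZ, 29.02 and 30.23 under sgRNA1, and 47.74 and 41.29 under sgRNA3. No groups overlapped. The LACZ mean of 123.3 ± 3.86 TPM (SD, n = 2) was 4.16-fold that with sgRNA1 and 2.77-fold that with sgRNA3, log2 changes of -2.02 (SE 0.084, limma adjusted p = 0.000827) and -1.45 (adjusted p = 0.00222). In the order of TPM levels within a group, ASNS went from the third of the 10 in the LACZ libraries to the seventh with sgRNA1.

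The stretch before the start of ASNS is shown because its C/EBP-ATF element is the textbook site through which ATF4 acts on amino acid genes, beside that of PHGDH, which fell too, and of ALDH18A1, which was called higher with sgRNA3. Each is 250 bases ending just before the RefSeq start (GRCh38.p14), read 5′ to 3′ on the gene's strand; capitals mark a match to TGATGNAA in ASNS and to CACGTG in ALDH18A1, and the sequence of PHGDH held none of the motifs searched.
ASNS, chr7:97872409-97872658, minus strand: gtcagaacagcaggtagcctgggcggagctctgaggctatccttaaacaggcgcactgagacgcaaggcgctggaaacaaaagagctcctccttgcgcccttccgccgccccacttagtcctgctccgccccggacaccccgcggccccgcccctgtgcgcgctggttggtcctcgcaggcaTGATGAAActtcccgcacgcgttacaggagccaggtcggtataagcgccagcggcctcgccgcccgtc
PHGDH, chr1:119711684-119711933, plus strand: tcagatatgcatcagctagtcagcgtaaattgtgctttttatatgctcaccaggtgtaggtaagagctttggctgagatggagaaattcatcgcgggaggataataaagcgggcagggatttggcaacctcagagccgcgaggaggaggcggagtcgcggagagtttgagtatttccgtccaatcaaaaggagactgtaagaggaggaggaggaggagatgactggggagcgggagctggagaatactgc
ALDH18A1, chr10:95656712-95656961, minus strand: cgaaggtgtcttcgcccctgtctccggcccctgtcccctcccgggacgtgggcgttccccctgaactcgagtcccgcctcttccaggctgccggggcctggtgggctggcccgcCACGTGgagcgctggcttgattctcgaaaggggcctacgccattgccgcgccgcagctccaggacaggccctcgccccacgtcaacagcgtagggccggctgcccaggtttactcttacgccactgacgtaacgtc
Promoters of 7 of the 10 members were matched in the RefSeq table by symbol; those of PSPH, SHMT2 and PYCR1 were not. These 7 members had 10 promoters in the table. ASNS had 2 of them, and the one not shown held no match. The start used for PHGDH lay inside the span given above for that gene, not at its first base. The motifs were searched on both strands, and matches were allowed to overlap. TGATGNAA (TTNCATCA on the other strand) is the core of the C/EBP-ATF element. CACGTG is the E-box bound by MYC and related factors, and TGACGTCA is the cAMP response element. TGATGNAA occurred in 1 of the 7 members and in 1 of the 10 member promoters, 68 to 61 bases before the start shown for ASNS. It was in 3.886% of 27305 genes and in 3.144% of 35116 promoters of the same length. CACGTG occurred in 1 of the 7, 136 to 131 bases before the start of ALDH18A1, in 1 of the 10 member promoters, in 7.728% of genes and in 6.345% of promoters. TGACGTCA was in none of the 7, in 2.033% of genes and in 1.646% of promoters. A match is a match of letters, not evidence of binding.

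Neither proline enzyme was called lower. ALDH18A1 (chromosome 10, 95605929 to 95656706, minus strand), which makes the activated form of glutamate, stood at 40.07 and 37.63 TPM under LACZ, 46.92 and 47.26 under sgRNA1, and 47.05 and 49.61 under sgRNA3. It was the member that lay higher in all 4 guide libraries than in both LACZ libraries, as did 13.2% of all tested genes. Its level was 121% of the LACZ mean with sgRNA1 (log2 0.27, SE 0.064, limma adjusted p = 0.0753, not past the threshold) and 124% with sgRNA3 (log2 0.31, adjusted p = 0.0480). The sgRNA3 call of ALDH18A1 was lost whichever of the 6 libraries was left out (adjusted p 0.0779 to 0.185). PYCR1 (chromosome 17, 81932384 to 81942412, minus strand), the reductase of the last step, stood at 62.34 and 76.58 TPM, 56.18 and 53.34 with sgRNA1, and 62.11 and 49.92 with sgRNA3. The lower LACZ library was only just above the higher sgRNA3 library. PYCR1 was at 78.8% and 80.6% of the LACZ mean and passed in neither comparison, with log2 differences of -0.33 (95% interval -0.69 to 0.02, limma adjusted p = 0.230) and -0.31 (-0.66 to 0.05, adjusted p = 0.231). Its 2 LACZ libraries differed by more than those of any serine enzyme. The sum of both proline enzymes was 102.41 and 114.21 TPM under LACZ, 103.1 and 100.6 under sgRNA1 (94.0% of the LACZ mean), and 109.16 and 99.53 under sgRNA3 (96.3%). PYCR1 over ALDH18A1 was 1.56 and 2.04 under LACZ, 1.20 and 1.13 under sgRNA1, and 1.32 and 1.01 under sgRNA3.

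Both transsulfuration enzymes fell. CBS (chromosome 21, 43053191 to 43076943, minus strand), which joins homocysteine to serine, stood at 35.19 and 41.89 TPM under LACZ, 16.23 and 15.29 under sgRNA1, and 18.48 and 13.84 under sgRNA3. The sgRNA3 libraries enclosed those of sgRNA1, and all 4 lay below the controls. It fell to 40.9% (log2 -1.23, SE 0.160, limma adjusted p = 0.0192) and 41.9% (log2 -1.21, adjusted p = 0.0172). The sgRNA1 call of CBS was lost without either LACZ library (adjusted p 0.0829 without the first and 0.101 without the second) or either sgRNA1 library (0.0810 and 0.107), and the sgRNA3 call without the first LACZ (0.0678), the second LACZ (0.0907) or the second sgRNA3 library (0.0590). CBSL (chromosome 21, 6444869 to 6468040) is a near-identical copy of CBS, so the division of reads between them is uncertain. CBSL was listed at 27.73 and 32.64 TPM, 15.89 and 17.18, and 13.78 and 13.08, with log2 changes of -0.83 (limma adjusted p = 0.0199) and -1.11 (adjusted p = 0.00903). The sum of both rows gave -1.06 and -1.19. The calls of CBSL were lost without either LACZ or either sgRNA1 library with sgRNA1 (adjusted p 0.0668 to 0.0965), and without the second LACZ or either sgRNA3 library with sgRNA3 (0.0506 to 0.0569).

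CTH (chromosome 1, 70411218 to 70439851, plus strand), which splits cystathionine to give cysteine, had the lowest level of the members in every library. It stood at 22.91 and 19.81 TPM under LACZ, 9.58 and 9.13 under sgRNA1, and 13 and 13.32 under sgRNA3, with no overlap between groups. It fell to 43.8% (log2 -1.11, SE 0.107, limma adjusted p = 0.00889) and 61.6% (log2 -0.66, adjusted p = 0.0277). The sgRNA1 call of CTH was lost without the first LACZ library (adjusted p = 0.0650) and without either sgRNA1 library (0.0501 and 0.0655), and the sgRNA3 call without any 1 of the 6 (0.0540 to 0.122). Calls for PHGDH, PSPH, MTHFD2 and ASNS held for both guides with each of the 6 libraries left out in turn.

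For 4 members the sgRNA3 call was also lost when no filter on low values was used, when the variance had no trend, and when the fit held only the 2 groups compared. In that order, the limma adjusted p was 0.0824, 0.0899 and 0.0738 for PSAT1, 0.0849, 0.0984 and 0.0533 for SHMT2, 0.0536, 0.0507 and 0.0517 for CTH, and 0.0695, 0.102 and 0.0771 for ALDH18A1. The sgRNA1 call of SHMT2 was lost under the same settings (0.0704, 0.0906 and 0.0605), and that of CBS without the trend (0.0525). With the replicate number as a block, the sgRNA1 call of CBS was lost (limma adjusted p = 0.0553). The block also lost the sgRNA3 calls of PSAT1 (0.0849), CTH (0.0624) and ALDH18A1 (0.0963). The sgRNA3 calls of PSAT1 and ALDH18A1 were lost by a narrow margin with median-of-ratios scaling (PSAT1, 0.0509) and without mitochondrial genes (ALDH18A1, 0.0503). ALDH18A1 was called higher with sgRNA1 as well under median-of-ratios and quantile scaling, with 0.0410 as its lowest limma adjusted p.

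**Figure D2:**
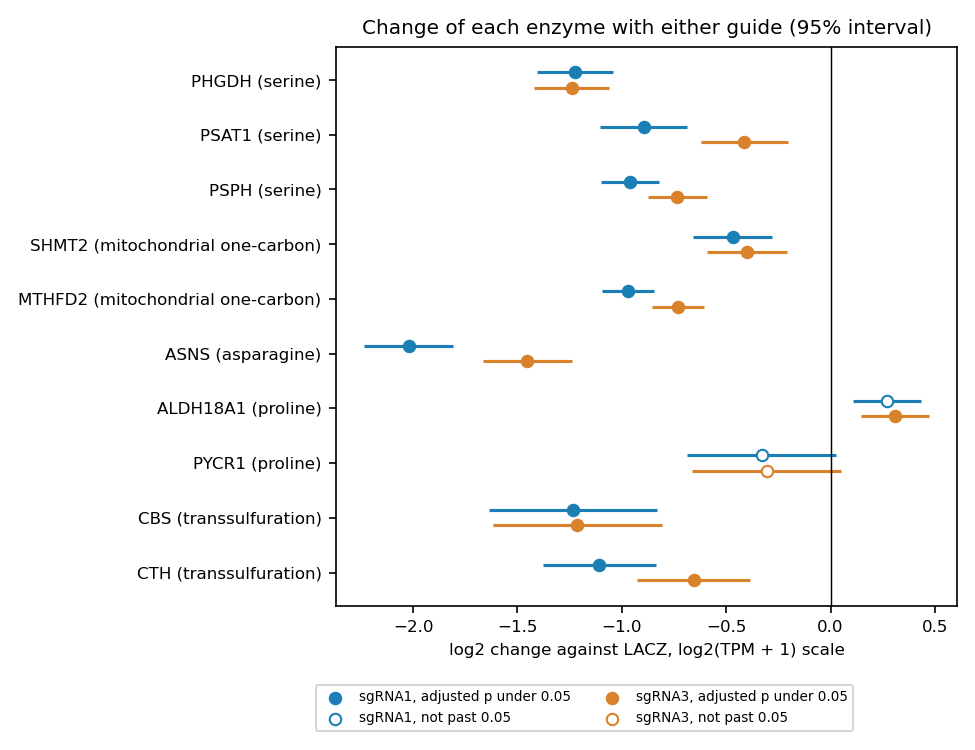
Log2 change of each enzyme against LACZ on the log2(TPM + 1) scale, with the 95% interval of the limma fit; filled points passed an adjusted p of 0.05. ASNS lies farthest to the left with both guides, ALDH18A1 alone lies to the right of 0, and the intervals of PYCR1 include 0.

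**Figure D3:**
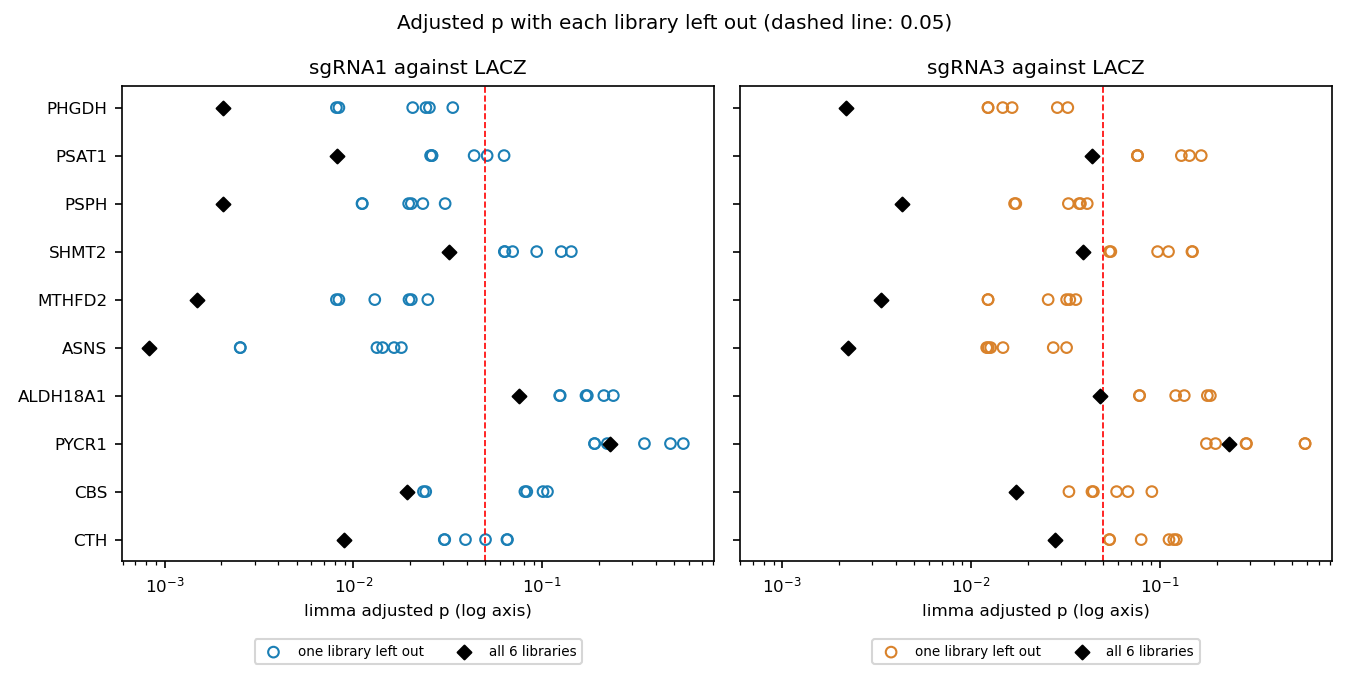
Limma adjusted p of each enzyme (log axis) with all 6 libraries (diamonds) and with each library left out in turn (circles), by guide; the dashed line is 0.05. All circles of PHGDH, PSPH, MTHFD2 and ASNS stay left of the line in both panels, and those of SHMT2 all lie right of it.

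Levels differed between the members in every group. In the LACZ libraries, by mean TPM, the order was SHMT2, MTHFD2, ASNS, PSPH, PYCR1, PHGDH, PSAT1, ALDH18A1, CBS and CTH. The neighbours PYCR1 and PHGDH, PHGDH and PSAT1, and ALDH18A1 and CBS overlapped between libraries, and the other neighbours did not. With sgRNA1 the order was SHMT2, MTHFD2, PYCR1, ALDH18A1, PSPH, PSAT1, ASNS, PHGDH, CBS and CTH, with no overlap of neighbours. With sgRNA3 the first 3 were the same, PSPH, ALDH18A1, PSAT1 and ASNS overlapped in sequence, and PHGDH, CBS and CTH followed. These places use the CBS row alone. With the CBSL row added, CBS stood at 62.92 and 74.53 TPM under LACZ, so its place is uncertain. Summed over all 10 enzymes the level was 834.75 and 816.16 TPM under LACZ, 470.22 and 449.56 under sgRNA1 (55.7% of the LACZ mean), and 535.94 and 509.2 under sgRNA3 (63.3%).

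Whether the guides differed from each other was tested in the same limma fit. None of the 10 passed in either direction at an adjusted p of 0.05, where 0.391% of all genes were called higher and 0.187% lower with sgRNA3. At an unadjusted p under 0.05, 5 members were higher with sgRNA3 (9.49% of all genes were) and none was lower (5.86%). These 5 were ASNS, PSAT1, CTH, MTHFD2 and PSPH. The difference, sgRNA3 minus sgRNA1, was 0.57 for ASNS (95% interval 0.36 to 0.78, limma adjusted p = 0.0851) and 0.48 for PSAT1 (0.28 to 0.69, adjusted p = 0.101). It was 0.45 for CTH (0.18 to 0.72, limma adjusted p = 0.166), 0.24 for MTHFD2 (0.11 to 0.37, adjusted p = 0.138) and 0.23 for PSPH (0.086 to 0.37, adjusted p = 0.176). For the other 5 the interval included 0. It ran from -0.20 to 0.16 for PHGDH and from -0.38 to 0.43 for CBS, so differences of that size between guides cannot be told from these libraries.

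The rest of these pathways was read from lists of other genes, chosen with earlier results known. Over all tested genes, 4.31% were lower and 1.69% higher with sgRNA1. With sgRNA3 these shares were 5.25% and 3.84%. Of 20 genes of serine, glycine and folate metabolism, 18 were tested, 2 were called lower with sgRNA1 and 2 higher with sgRNA3, none with both, and the median log2 changes were 0.05 and 0.10. Of the relatives of SHMT2 and MTHFD2, SHMT1, MTHFD1 and MTHFD2L were not past the threshold with either guide in the main fit. SHMT1 stood at 21.46 and 24.73 TPM under LACZ, 25.81 and 22.44 under sgRNA1, and 24.27 and 22.03 under sgRNA3, differences of 0.06 and 0.01 that changed sign without some libraries (the first LACZ library or the first library of the guide concerned). MTHFD1, the cytosolic folate enzyme with several activities, had differences of 0.10 and 0.28 (limma adjusted p = 0.0618 with sgRNA3). With sgRNA3 it was called higher with a filter of at least 5 TPM (limma adjusted p = 0.0465), with median-of-ratios scaling (0.0219), with only the groups compared (0.0467) and without either sgRNA1 library. MTHFD2L, a close relative of MTHFD2, had -0.17 and 0.05, with a sign that changed when the second LACZ library was left out for sgRNA1 and the first LACZ or second sgRNA3 library for sgRNA3. The 2 lower genes with sgRNA1 were mitochondrial folate enzymes. MTHFD1L, which makes formate, stood at 25.95 and 21.89 TPM and then 14.87 and 16.26 (log2 -0.59, limma adjusted p = 0.0467), and ALDH1L2, which oxidises formyl-folate, at 2.79 and 1.95 and then 0.24 and 0.34 (log2 -1.38, adjusted p = 0.0473). ALDH1L2 reached 1 TPM in the LACZ libraries alone, so it passed the filter only through the group where it is high, and its lower call is in part set by that filter. The call of MTHFD1L was lost whichever of the 6 libraries was left out (adjusted p 0.0905 to 0.173) and that of ALDH1L2 without either sgRNA1 or either sgRNA3 library (0.0869 to 0.143); without either LACZ library ALDH1L2 did not pass the filter and was not tested. The 2 higher genes with sgRNA3 were GCSH, a part of the glycine cleavage system (log2 0.45, limma adjusted p = 0.0152), and SLC25A32, the mitochondrial folate carrier (log2 0.53, adjusted p = 0.0325), which is named after its values were seen. GCSH was lost without either LACZ or either sgRNA3 library (0.0659 to 0.0855), and SLC25A32 without any 1 of the 6 (0.0504 to 0.140). GGH, which trims folate chains, passed with neither guide (limma adjusted p 0.0917 and 0.106).

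Of 15 genes of aspartate, asparagine, glutamine and glutamate, 12 were tested, 2 were lower with sgRNA1, 3 lower and 1 higher with sgRNA3, and the medians were -0.06 and -0.16. GPT2, the mitochondrial alanine aminotransferase, stood at 31.86 and 27.37 TPM under LACZ, 15.28 and 14.74 under sgRNA1, and 16.69 and 15.20 under sgRNA3. Its log2 changes were -0.93 (limma adjusted p = 0.0148) and -0.85 (adjusted p = 0.0151), calls lost without either LACZ library or either library of the guide concerned (0.05002 to 0.0841). GOT1, the cytosolic aspartate aminotransferase, changed less, by -0.35 (limma adjusted p = 0.0297) and -0.31 (adjusted p = 0.0332). With sgRNA1 the call of GOT1 was lost whichever of the 6 was left out (0.0699 to 0.137), and with sgRNA3 without either LACZ or either sgRNA3 library (0.118 to 0.141). ASRGL1, an asparaginase, passed with neither guide (limma adjusted p 0.223 and 0.211).

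Of 14 genes of proline and ornithine, 11 were tested, none was called with sgRNA1, 1 was lower and 1 higher with sgRNA3, and the medians were -0.02 and -0.09. PYCR3, a relative of PYCR1, gave no call, with differences of 0.25 and 0.29. ODC1, which makes putrescine from ornithine, was higher with sgRNA3 (log2 0.54, limma adjusted p = 0.0130). P4HA1, a collagen prolyl hydroxylase, was lower with sgRNA3 (log2 -0.37, limma adjusted p = 0.0340), and P4HA2 had a difference of -0.48 (adjusted p = 0.0563). With a filter of at least 5 TPM, ODC1 and P4HA1 were also called with sgRNA1 (limma adjusted p 0.0382 and 0.0439) and P4HA2 with sgRNA3 (0.0400); both other scalings called ODC1 with sgRNA1 too (0.0186 and 0.0236), and leaving out the second LACZ library called P4HA2 with sgRNA3. The sgRNA3 calls of ODC1 (0.0582 to 0.0752) and P4HA1 (0.132 to 0.136) were lost without either LACZ or either sgRNA3 library.

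Of 20 genes of methionine, transsulfuration and cysteine, 15 were tested, 1 was lower and 1 higher with sgRNA1, 3 lower and 1 higher with sgRNA3, and the medians were -0.14 and 0.02. CBSL, the copy of CBS, was the gene lower with both, so this call is not independent of that of CBS. MAT2A, which makes S-adenosylmethionine, was higher with sgRNA1 (log2 0.41, limma adjusted p = 0.0235), a call lost without any library but the second of sgRNA1 (0.0589 to 0.123). ETHE1, a mitochondrial sulfur dioxygenase, was lower with sgRNA3 (log2 -0.53, limma adjusted p = 0.0325), lost without any 1 of the 6 (0.0641 to 0.128). Named after their values were seen, TST was lower with sgRNA3 (log2 -0.54, limma adjusted p = 0.0341) and GCLM, a subunit of the enzyme that begins glutathione synthesis, was higher (log2 0.77, adjusted p = 0.0407), both lost without any 1 of the 6 libraries (0.0636 to 0.143 and 0.0722 to 0.156). SQOR, which oxidises sulfide, passed with neither guide, though it was lower with sgRNA3 under quantile normalization (limma adjusted p = 0.0408), and MAT2A was higher with sgRNA3 under median-of-ratios scaling (0.0272).

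**Figure D4:**
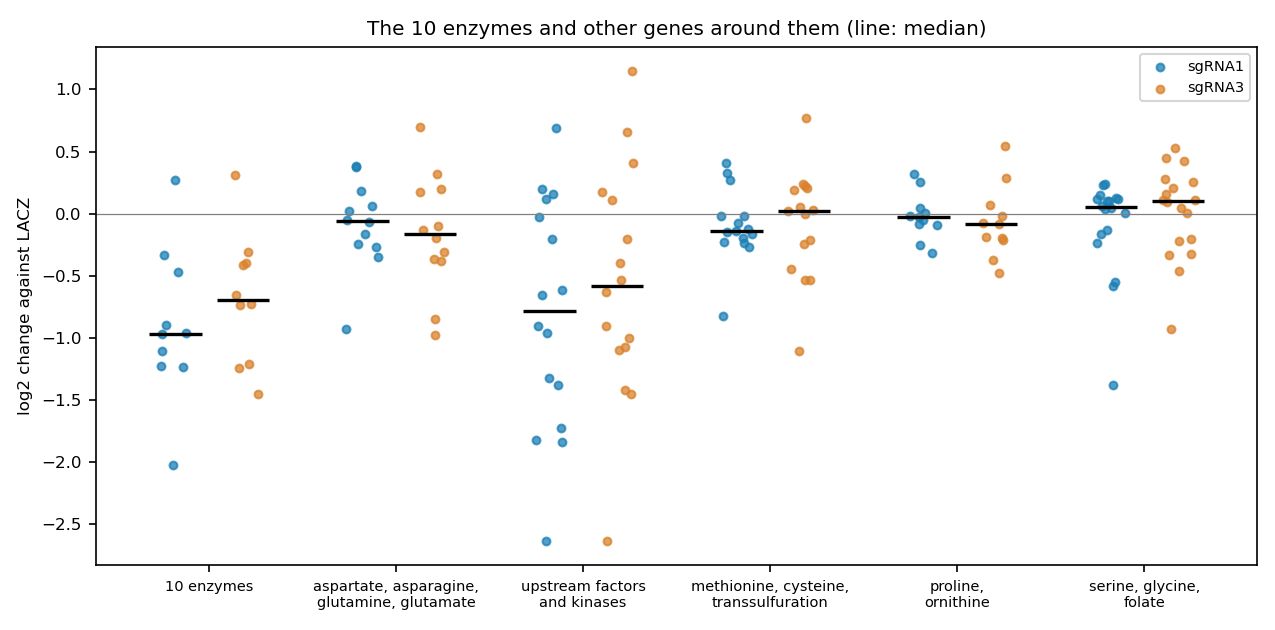
Log2 change against LACZ, on the log2(TPM + 1) scale, of each tested gene in the 10 enzymes and in 5 lists of other genes; each point is a gene and each line a median. The medians of the 10 enzymes (-0.97 and -0.69) and of the upstream factors (-0.78 and -0.58) lie below 0, and those of the 4 other metabolic lists lie between -0.16 and 0.10.

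The upstream list held 17 genes, 16 of them tested: regulators of such enzymes, and genes that ATF4 induces or that restrain ATF4. Of these, 10 were lower with both guides, where 2.9% of all tested genes were. Higher with both was 1, where 1.15% of all genes were. The list was chosen with earlier results of these data known. The medians were -0.78 and -0.58. ATF4, the factor described above, stood at 482.87 and 485.88 TPM under LACZ, 249.78 and 246.71 under sgRNA1, and 264.29 and 252.83 under sgRNA3, with log2 changes of -0.96 and -0.90. MYC, which also acts on serine and mitochondrial folate genes, stood at 281.3 and 282.55 TPM, 107.06 and 109.09, and 137.84 and 128.78, with log2 changes of -1.38 and -1.08. DDIT3, a stress factor that ATF4 induces, changed by -1.72 and -1.45, TRIB3, a pseudokinase that restrains ATF4, by -1.82 and -1.09, and PPP1R15A, which helps to dephosphorylate eIF2 alpha, by -1.83 and -1.42. These 5 passed with both guides in limma (adjusted p at most 0.0013). CEBPB, a partner of ATF4, changed by -0.90 (limma adjusted p = 0.0038) and -0.63 (adjusted p = 0.0098), the second lost without either LACZ or the second sgRNA3 library (0.0590 to 0.0669). NFE2L2, the oxidative stress factor, changed by -0.66 (limma adjusted p = 0.0115) and -0.54 (adjusted p = 0.0155), lost without either LACZ or the second sgRNA1 library (0.0566 to 0.0797) and without either LACZ or either sgRNA3 library (0.0574 to 0.0866). The other 3 lower genes, named after their values were seen, were ATF3, CEBPG and PPP1R15B, the last lost without either LACZ or either sgRNA1 library with sgRNA1 and whichever of the 6 was left out with sgRNA3 (limma adjusted p 0.0592 to 0.118 and 0.0622 to 0.176). The gene that was higher with both was ATF5 (log2 0.69 and 1.15), whose sgRNA1 call was lost without either LACZ or either sgRNA1 library (limma adjusted p 0.0548 to 0.0892). The transcript level of ATF4 does not give the amount of its protein, which is set largely in translation.

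The genes whose profile over the 6 libraries was nearest to the median of the members were sought among 11536 tested genes with a mean of at least 5 TPM. Nearness was the Euclidean distance between log2(TPM + 1) values after subtracting the LACZ mean. The nearest to the members' median profile was SNHG1, the host transcript of small nucleolar RNAs, at a distance of 0.076, with 509.34 and 484.8 TPM under LACZ, 269.26 and 257.93 under sgRNA1, and 306.27 and 311.48 under sgRNA3. IER3, S100A14, PICART1 and CDC42EP3 followed, up to a distance of 0.13. Nearest to ASNS were CXCL8, the neutrophil chemokine, at a distance of 0.28, PPP1R15A at 0.34 and ERRFI1, an inhibitor of the EGF receptor, at 0.44. CXCL8 stood at 867.73 and 786.04 TPM, 220.89 and 215.51, and 338.06 and 324.86, an order of groups that follows from picking it by nearness to ASNS.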

How the data were processed

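RNA-seq of 6 CFPAC-1 libraries was analysed from the authors' deposited matrix of TPM values. Per the submitters' processing notes the build was GRCh38 and the tools were DESeq2 1.24.0, RSEM 1.3.1 and HISAT2 2.1.0, without roles. The sources used here do not give the annotation release, the strandedness or how reads shared by copies were handled. Since TPM keeps no read totals, library depth is unknown and values carry no counting interval.

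From these values, log2(TPM + 1) of the 16610 genes with a TPM of at least 1 in at least 2 of the 6 libraries was fitted with limma 3.58.1 (R 4.3.3, data.table version 1.17.8) as 3 groups with an intensity trend (3 residual degrees of freedom, 2.34 from the prior); p-values were adjusted by Benjamini-Hochberg over all 16610 genes. DESeq2 was not used here, since TPM values are not counts. Coordinates came from GENCODE 29 (GRCh38) and promoters from RefSeq (GRCh38.p14). The lists held 134 entries, 132 matched by symbol and 2 by gene ID.

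The members and lists were chosen with earlier results of these data known. Genes named outside the members were SULF2, paralogs or copies of members, up to 4 tested genes of each metabolic or regulator list with the smallest larger p of both guides, the factors ATF4, DDIT3, CEBPB, MYC and NFE2L2, and the nearest profiles (5 to the members' median and 3 to ASNS). Some genes that this rule names are not reported here. Alternatives were pseudocounts, filters, scalings, variance models, a replicate block and leaving out each library. Correlations of deviations between libraries with the same number in different groups were -0.018, 0.0061 and -0.031, so the numbers were not taken to pair libraries. Such correlations over all genes cannot exclude a culture or batch shared by number.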

Additional observations from a re-analysis of the deposited data

Results flagged for a closer look

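Of the genes in the metabolic and regulator lists, 2 differed between the guides by the limma test of that difference. TRIB3, a pseudokinase that restrains ATF4, stood at 148.3 and 152.8 TPM under LACZ, 41.63 and 42.32 under sgRNA1, and 71.75 and 68.33 under sgRNA3. Its level was higher with sgRNA3 than with sgRNA1 by 0.72 (log2, limma adjusted p = 0.0174), although it fell with both against LACZ. GLUL, the glutamine synthetase, stood at 72.68 and 72.5 TPM, 76 and 62.83, and 37.3 and 35.41. It was lower with sgRNA3 than with sgRNA1, a difference of -0.91 (log2, limma adjusted p = 0.0412), and was called lower against LACZ with sgRNA3 (log2 -0.98, adjusted p = 0.0097) and not with sgRNA1 (log2 -0.07, adjusted p = 0.714). The differences between guides were no longer called when any 1 of the 6 libraries was left out (limma adjusted p 0.0612 to 0.0972 for TRIB3 and 0.0777 to 0.167 for GLUL), and the sgRNA3 call of GLUL against LACZ was lost without either LACZ or either sgRNA3 library (0.0507 to 0.0655).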

How the results depend on the processing

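The LACZ comparisons kept the direction of all 10 members under every alternative run. The cause of each change below was not tested. Without a filter, 396 genes were lower and 146 higher with sgRNA1 (7 members lower), 440 and 345 with sgRNA3 (5 members lower, 0 higher), and 0 and 0 between guides. With median-of-ratios scaling, higher calls rose to 610 with sgRNA1 (578 lower, against 281 and 716) and 1020 with sgRNA3 (806 lower, against 637 and 872; 7 members lower); quantile normalization gave 442 higher (560 lower) with sgRNA1 and 776 higher (808 lower) with sgRNA3. Both scalings called ALDH18A1 higher with sgRNA1, 1 member. Between guides they turned CBS (-0.011 and -0.028) and PYCR1 (-0.0095 and -0.020), and quantile normalization ALDH18A1 (-0.0073). Median-of-ratios scaling turned GLUL with sgRNA1 (0.013). Without mitochondrial genes, 0 members were higher with sgRNA3. Without a variance trend, 233 genes were lower and 62 higher with sgRNA1 (6 members lower), 377 and 180 with sgRNA3 (5 members lower, 0 higher), and 5 and 7 between guides. With only the groups compared, the counts were 360 and 121 with sgRNA1 (7 members lower), 562 lower with sgRNA3 (5 members lower, 0 higher), and 5 and 7 between guides. With a replicate block, though the numbers do not pair the libraries, 286 genes were lower and 91 higher with sgRNA1 (7 members lower), 309 and 252 with sgRNA3 (6 members lower, 0 higher), and 0 and 0 between guides. Summing copies, chosen after seeing the data, turned PSPH (-0.22) and CBS (-0.13) between guides. The sgRNA1 call of SULF2 was lost without a filter (limma adjusted p 0.0768), without a trend (0.0675) and with quantile normalization (0.0530). It was also lost with only the groups compared (0.0672) and with a replicate block (0.0819). The sgRNA3 call of SULF2 was lost without a filter (limma adjusted p 0.0528), without a trend (0.0511) and with a replicate block (0.0583). The MTHFD1L call was lost with a pseudocount of 5, no filter, both scalings, no trend, library weights, only the groups compared and the block (limma adjusted p 0.0514 to 0.102). NFE2L2 was lost without a trend (0.0511 with sgRNA1, 0.0568 with sgRNA3). CBSL with sgRNA1 was lost without a trend (0.0505) and with the block (0.0515). Other genes of the lists also lost calls, and not all are given.

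With each library left out in turn, 4 to 7 members were lower with sgRNA1, and 4 to 5 lower and 0 higher with sgRNA3. All-gene counts were 130 to 344 lower and 33 to 120 higher with sgRNA1, 140 to 545 and 93 to 422 with sgRNA3, and 0 to 6 and 0 to 23 between guides. Differences between guides whose sign changed ranged from -0.17 to 0.22 for CBS, -0.13 to 0.18 for PYCR1, -0.078 to 0.047 for PHGDH, -0.0012 to 0.074 for ALDH18A1 and -0.38 to 0.093 for SULF2. Against LACZ, those of SHMT1 ranged from -0.038 to 0.16 and from -0.093 to 0.10, and those of MTHFD2L from -0.40 to 0.066 and from -0.18 to 0.28; with sgRNA1, GLUL ranged from -0.21 to 0.065 and EIF2AK2 from -0.036 to 0.27. Depth is unknown, so its limits cannot be given.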

Other observations

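Of the kinases and factors around eIF2 alpha, 2 genes of the upstream list were higher with sgRNA3 alone by the threshold, without a called difference between the guides. EIF2S1, which encodes eIF2 alpha, stood at 271.48 and 258.29 TPM under LACZ, 295.01 and 314.15 under sgRNA1, and 332.53 and 370.83 under sgRNA3 (log2 0.41 with sgRNA3, limma adjusted p = 0.0287). EIF2AK2, the kinase that responds to double-stranded RNA, stood at 58.83 and 47.53 TPM, 57.67 and 57.07, and 81.26 and 86.83 (log2 0.66 with sgRNA3, limma adjusted p = 0.0281). The call of EIF2S1 was lost whichever of the 6 libraries was left out (limma adjusted p 0.0534 to 0.124), and that of EIF2AK2 without any except the first LACZ library (0.0612 to 0.122). Both were named after their values were seen.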
